A study of Mus musculus with 16 samples.

Results

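The *Orai* and *Stim* genes were described in immune and stromal cells sorted from mouse skin, 6 h after the skin had been stretched by hypobaric pressure (suction) and without stretch. The family comprises the pore genes *Orai1*, *Orai2* and *Orai3* and the calcium sensor genes *Stim1* and *Stim2*. Members were chosen by gene symbol, and all 5 were found among the 55487 gene IDs of the count table. The family itself was selected on earlier results from the counts of these same libraries, so its values and p-values are a description and no independent support for a response of the pathway. The libraries were bulk RNA-seq of cells sorted by the leukocyte protein CD45 into CD45+ (immune) and CD45- (stromal) fractions. The 4 groups were stretched immune (libraries 1, 2, 7 and 8), control immune (3 to 6), stretched stromal (5 to 8) and control stromal (1 to 4), with 4 libraries each, numbered as in their titles. The labels give neither strain, genotype, sex nor age, and they do not say whether libraries came from separate animals, so p-values cover the spread of these samples only, which may be technical.

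Store-operated calcium entry refills calcium stores after they have been emptied. STIM1 and STIM2 span the membrane of the endoplasmic reticulum and sense the calcium level inside it. When that level drops, they cluster at junctions with the plasma membrane and open channels built from ORAI subunits. In leukocytes this calcium current drives calcineurin and the transcription factors of the NFAT family, and loss of ORAI1 or STIM1 in humans causes immunodeficiency. Keratinocytes, fibroblasts and muscle cells use the same route.

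The genes lie on 2 chromosomes in the GRCm38 assembly (mm10), all annotated as protein coding by GENCODE. *Orai1* (ENSMUSG00000049686) spans chromosome 5 from 123015074 to 123030456, *Orai2* (ENSMUSG00000039747) chromosome 5 from 136147459 to 136170713 and *Stim2* (ENSMUSG00000039156) chromosome 5 from 53998499 to 54121057. *Orai3* (ENSMUSG00000043964) spans chromosome 7 from 127769815 to 127775150 and *Stim1* (ENSMUSG00000030987) chromosome 7 from 102267806 to 102437319. The genes differ in transcript length, with a longest annotated transcript of 1875 bases for *Orai1*, 2141 for *Orai3*, 3990 for *Orai2*, 4362 for *Stim1* and 4934 for *Stim2*. Reads of the members were hardly shared with other genes: 0 of the 50-base stretches of *Orai1*, *Orai3* and *Stim1* transcripts occur in transcripts of another gene, against 0.162% for *Orai2* and 0.425% for *Stim2*. The strand setting of the counting is not stated, and the exons of *Orai1* overlap those of the antisense gene *Gm2479* by 7 bases, a gene that had 21 reads in all 16 libraries.

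Total counts ranged from 21955174 to 26944965 per library in stretched stromal and from 13563586 to 20467010 in control stromal libraries. They ranged from 7018743 to 20095580 in stretched immune and from 2645421 to 6662268 in control immune libraries, so the stretched libraries of either fraction were all deeper than its controls. *Ptprc*, which encodes CD45, was at 220 to 703 CPM in the immune and at 0.0644 to 3.39 CPM in the stromal libraries, where CPM are counts per 1e+06 reads scaled with trimmed-mean (TMM) factors over the 16 libraries, except in sums over several genes, which are unscaled. The 5 pan-leukocyte markers summed to 2170 to 5200 CPM in immune and 3.98 to 15.7 CPM in stromal libraries, whereas the 8 fibroblast markers summed to 1400 to 10000 CPM in immune and 41300 to 65600 CPM in stromal libraries. Immune control 4 (6210 CPM) and stretched stromal libraries 7 (424 CPM) and 8 (208 CPM) stood apart by reads on 1972 olfactory and vomeronasal receptor genes, against 18 to 69.9 CPM elsewhere.

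*Orai1* and *Orai3* had stretch values of opposite sign in the fractions. Both were lower in stretched than in control stromal libraries and higher in stretched than in control immune libraries, without overlap between the groups in any of these cases. *Orai3* in the stromal fraction is the single member whose stretch value passed the edgeR test over all genes. *Stim1*, *Stim2* and *Orai2* had values that did not pass in either fraction. The plot of the members in every library shows these levels.

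**Figure D1:**
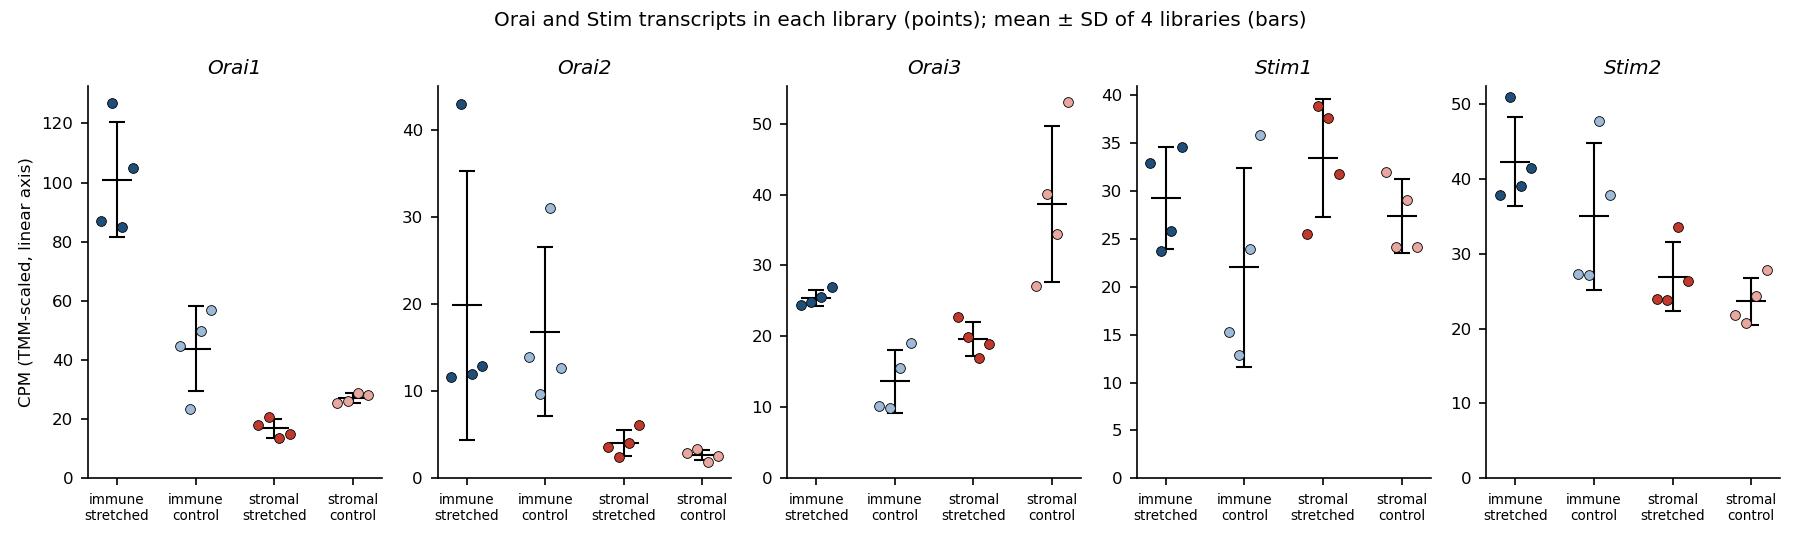
CPM (TMM-scaled, linear axes from 0, each panel with its own scale) of the 5 genes in every library of the 4 groups; points are libraries, bars the mean ± SD of 4 libraries. The *Orai1* and *Orai3* points of stretched and control libraries do not overlap in either fraction, and a single stretched immune library holds 43.0 CPM of *Orai2*.

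*Orai1* encodes the pore subunit that carries the main store-operated current of lymphocytes and mast cells. It had 18, 20.9, 13.7 and 15.1 CPM in stretched stromal libraries 5 to 8, against 25.6, 26, 28.7 and 28.3 CPM in control stromal libraries 1 to 4. All stretched stromal values lay below all control stromal values. The means were 16.9 ± 3.22 CPM in stretched and 27.1 ± 1.57 CPM in control stromal libraries (SD, n = 4 each). The log2 fold change was -0.68 ± 0.18 (SE), with a Benjamini-Hochberg adjusted p of 0.0512 in edgeR's quasi-likelihood test, so it did not pass the threshold of 0.05. Of 16 alternatives 4 called *Orai1* in stroma, with an adjusted p of 0.0118 in DESeq2 and of up to 0.326 in edgeR.

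In the immune fraction *Orai1* had 87.0, 127, 85.1 and 105 CPM in stretched libraries 1, 2, 7 and 8, against 44.9, 23.5, 49.7 and 57.0 CPM in control libraries 3 to 6. All stretched immune values lay above all control immune values, and the lowest control value was that of immune control 4, the shallowest library, with 102 *Orai1* reads. The means were 101 ± 19.3 CPM in stretched and 43.8 ± 14.4 CPM in control immune libraries (SD, n = 4 each). The log2 fold change was 1.06 ± 0.28, with an edgeR adjusted p of 0.156. The 10 macrophage and dendritic cell markers, all detected, summed to 26900 to 38600 CPM in stretched and 7290 to 15700 CPM in control immune libraries, and the part of this shift in the *Orai1* and *Orai3* values was not tested. In such bulk samples fewer cells of a type and less RNA per cell cannot be told apart.

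*Orai3* encodes a pore subunit found in mammals only, which also joins ORAI1 in channels gated by arachidonic acid. It had 22.8, 19.9, 17 and 18.9 CPM in stretched stromal libraries 5 to 8, against 27.1, 40.1, 34.4 and 53.1 CPM in control stromal libraries 1 to 4. The groups did not overlap, and control 4 was the highest of the controls. *Orai3* fell with a log2 fold change of -0.97 ± 0.21 (edgeR adjusted p = 0.0431), with means of 19.6 ± 2.42 CPM in stretched and 38.7 ± 11 CPM in control stromal libraries (SD, n = 4 each). In all, 1 of the 5 members was called, lower in stretched stroma, while 4.98% of the 16074 genes tested were called and 2.93% were called lower. The smallest edgeR adjusted p of any gene in this comparison was 0.0363, and 4309 genes had an unadjusted p under 0.05. Without overlap and lower were 2 of the 5 members, *Orai1* and *Orai3*, against 10.2% of all genes tested. The 7 pericyte and smooth muscle markers, all detected, summed to 209 to 272 CPM in stretched and 111 to 188 CPM in control stromal libraries, and their part in the *Orai1* and *Orai3* values was not tested.

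The *Orai3* call ended when any of stretched stromal libraries 6, 7 and 8 or control stromal libraries 1, 2, 3 and 4 was left out (edgeR adjusted p 0.0528 to 0.138, log2 fold change -1.07 to -0.77), without stretched libraries 7 and 8 together (log2 fold change -0.87, adjusted p = 0.287), and when all 16 libraries entered 1 fit (-0.98, adjusted p = 0.127). Across genes, which are not independent replicates, stretch fold changes in the stromal fraction rose with the length of the longest transcript (Spearman rho 0.42), and *Orai1* and *Orai3* are the shortest of the 5. When offsets removed the trend on length and GC content, *Orai3* had -0.95 (adjusted p = 0.0727) and *Orai1* -0.59 (adjusted p = 0.0919).

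In the immune fraction *Orai3* had 24.4, 24.9, 25.5 and 26.9 CPM in stretched libraries 1, 2, 7 and 8, against 10.2, 9.93, 15.6 and 19.1 CPM in control libraries 3 to 6. The stretched immune values lay close together and above all controls, whose values rest on 43 to 137 reads. The log2 fold change was 0.73 ± 0.26 with an edgeR adjusted p of 0.217. With length and GC offsets it was 0.40 for *Orai3* (adjusted p = 0.505) and 0.76 for *Orai1* (adjusted p = 0.302) in the immune fraction. Of the 5 members 0 were called in the immune fraction, where 0% of 14183 genes were called, 2467 genes had an unadjusted p under 0.05, and DESeq2 called 781 genes, *Orai1* among them (adjusted p = 0.0156). Without overlap and higher were 2 of the 5 members, *Orai1* and *Orai3*, against 8.55% of all genes tested.

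The difference between the stretch effects, immune minus stromal, was tested as an interaction in a separate fit of the 16 libraries, with its own scale factors. It need not equal the difference of the effects given above. It was 1.88 ± 0.35 for *Orai1* and 1.87 ± 0.35 for *Orai3* on the log2 scale, each with an edgeR adjusted p of 0.0573, which does not pass. By p-value *Orai1* ranked 12 and *Orai3* 17 among 18295 genes tested, and 0.0573 was the smallest adjusted p of the test. Their ranks were 869 and 309 of 16074 genes in the stromal and 268 and 1135 of 14183 genes in the immune stretch comparison. The interaction test called 0 of the 5 members and 0% of all genes, with 4232 genes at an unadjusted p under 0.05. DESeq2 called 1609 genes, with *Orai1* (1.70, adjusted p = 0.000199) and *Orai3* (1.67, adjusted p = 0.000299) among them. edgeR called both genes as well without stretched immune library 2 (1.57 and 1.69) and without immune control 6 (2.07 and 2.11), and *Orai1* without immune control 4 (1.71, adjusted p = 0.0480). The differences under length and GC offsets were 1.46 and 1.49 (adjusted p = 0.166 and 0.159). Without immune control 4 and stretched stromal libraries 7 and 8 they were 1.44 and 1.58 (edgeR adjusted p = 0.376 each). Without stretched stromal library 7 alone they were 1.80 and 1.81 (edgeR adjusted p = 0.159 each). With a block for the title number they were 2.51 and 2.61 (edgeR adjusted p = 0.121 each). Of 25 alternatives 8 called *Orai1* and 6 called *Orai3*.

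**Figure D2:**
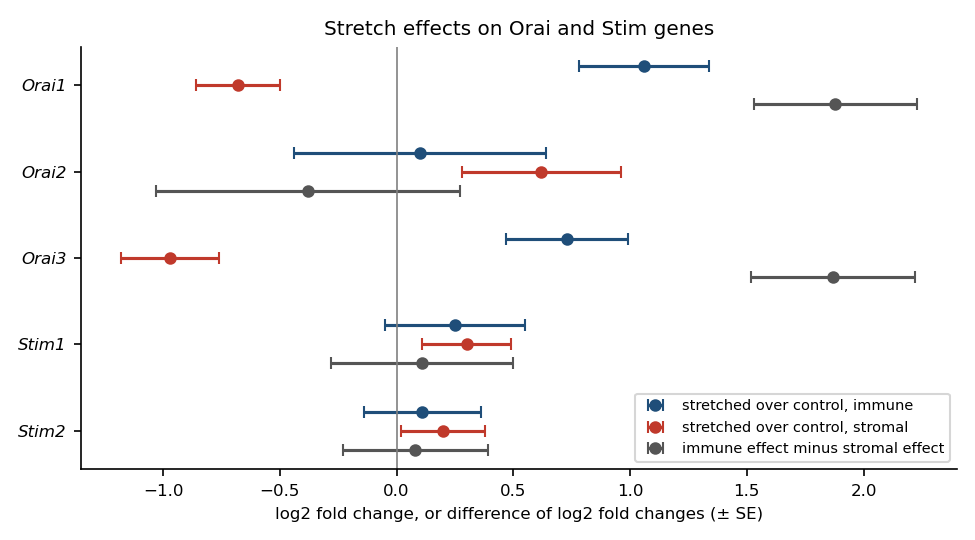
Log2 fold change of stretched over control for each fraction, and the immune minus stromal difference in effect, for each gene. Points are edgeR estimates, bars ± SE. The difference comes from a separate fit of all 16 libraries and need not equal the difference of the plotted effects. *Orai1* (1.06 and -0.68) and *Orai3* (0.73 and -0.97) lie on opposite sides of 0 in immune and stromal cells, while *Stim1* and *Stim2* lie between 0.11 and 0.30 in both.

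The promoters of *Orai1* and *Orai3*, the members with opposite stretch values in the fractions, are shown as the 250 bases before the annotated start site (RefSeq, GRCm38.p6, plus strand for both). Capitals mark GC boxes (GGGCGG) and CCAAT boxes, searched on both strands.
Orai1, chr5:123014824-123015073: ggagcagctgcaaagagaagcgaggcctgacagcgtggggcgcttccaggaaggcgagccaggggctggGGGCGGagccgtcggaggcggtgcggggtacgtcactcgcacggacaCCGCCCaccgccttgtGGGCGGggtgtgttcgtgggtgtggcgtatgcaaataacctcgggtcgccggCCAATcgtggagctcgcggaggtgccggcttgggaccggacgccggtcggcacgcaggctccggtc
Orai3, chr7:127769565-127769814: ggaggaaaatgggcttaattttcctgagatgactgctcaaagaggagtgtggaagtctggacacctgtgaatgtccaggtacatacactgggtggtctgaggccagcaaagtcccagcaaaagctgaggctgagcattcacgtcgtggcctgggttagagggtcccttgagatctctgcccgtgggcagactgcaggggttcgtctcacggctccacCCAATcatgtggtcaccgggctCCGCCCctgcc
The *Orai1* window holds 3 GC boxes and 1 CCAAT box, and the *Orai3* window 1 of each. Of 32851 such windows of annotated genes, 32.7% hold a GC box and 33.8% a CCAAT box. The *Orai1* window has 30 CpG sites and a GC content of 70.8%, the *Orai3* window 7 CpG sites and 57.2%, against medians of 6 and 52.4%. These traits are not particular to the 2 genes. The *Stim1* window has 31 CpG sites, 78.4% GC and 8 GC boxes, and the *Stim2* window 30 CpG sites, 74.8% GC and 3 GC boxes. The *Orai2* window has 17 CpG sites, 63.6% GC and 1 GC box. The NFAT core GGAAA occurs 0 times in the *Orai1* and 2 times in the *Orai3* window and in 55.6% of all windows. The AP-1 site (TGANTCA, in 6.75% of windows) matched in 0 of the 5 member windows, and the NF-kB motif (in 7.25%) in 1, that of *Stim2*.

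*Orai2* encodes a pore subunit that lowers the store-operated current when it joins channels with ORAI1 in mouse T cells. It was the rarest member in stromal cells, with 3.63, 2.50, 4.09 and 6.08 CPM in stretched libraries 5 to 8, against 2.89, 3.34, 1.93 and 2.55 CPM in control libraries 1 to 4. These groups overlapped, and the log2 fold change of 0.62 ± 0.34 did not pass (edgeR adjusted p = 0.271). In the immune fraction it had 11.6, 43.0, 12 and 12.9 CPM in stretched libraries 1, 2, 7 and 8, against 13.9, 9.70, 31.1 and 12.7 CPM in control libraries 3 to 6. A single library was high in each immune group, stretched library 2 and control library 5. The log2 fold change was 0.10 ± 0.54 (edgeR adjusted p = 0.937), and -0.66 (adjusted p = 0.36) without stretched library 2.

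These 2 immune libraries also held the largest neutrophil marker sums. Over the 8 markers, all detected, the sum was 33100 CPM in stretched library 2 and 144 to 777 CPM in the other stretched immune libraries, against 8920 CPM in control library 5 and 474 to 6800 CPM in the other immune controls. Control library 3, with 6800 CPM of these markers, had 13.9 CPM of *Orai2*. The part of the neutrophil transcripts in the *Orai2* values was not tested.

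**Figure D3:**
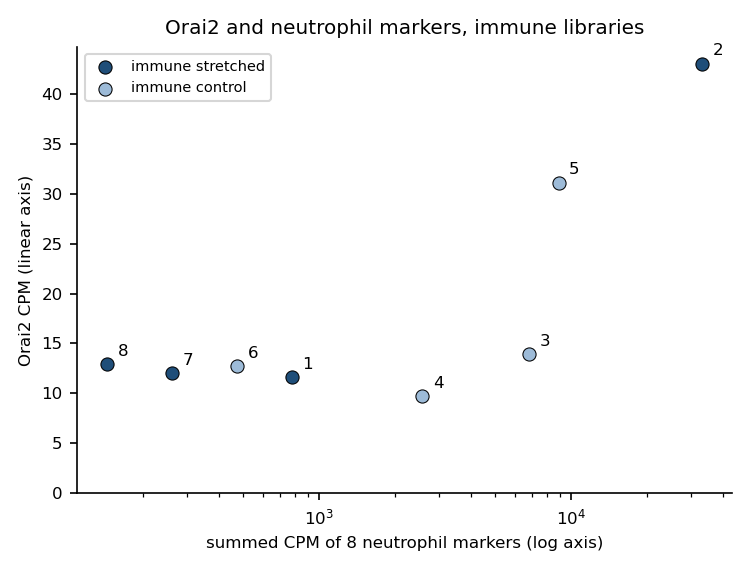
*Orai2* CPM (linear axis) against the summed CPM of 8 neutrophil markers (log axis) in the 8 immune libraries, labelled by library number. Stretched library 2 (33100 CPM of markers) and control library 5 (8920 CPM) hold 43.0 and 31.1 CPM of *Orai2*, and the other 6 libraries 9.70 to 13.9 CPM.

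*Stim1* encodes the sensor that carries most of the store-operated response in T cells and skeletal muscle. It had 25.5, 38.9, 37.6 and 31.8 CPM in stretched stromal libraries 5 to 8, against 32, 24.2, 29.1 and 24.2 CPM in control stromal libraries 1 to 4. In the immune fraction it had 32.9, 23.7, 25.8 and 34.6 CPM in stretched libraries 1, 2, 7 and 8, against 15.3, 12.9, 24 and 35.9 CPM in control libraries 3 to 6. The groups overlapped in both fractions, with log2 fold changes of 0.25 ± 0.30 (immune) and 0.30 ± 0.19 (stromal), which did not pass (edgeR adjusted p = 0.677 and 0.335).

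*Stim2*, the sensor that responds to smaller drops in stored calcium, had 24, 23.8, 33.6 and 26.4 CPM in stretched stromal libraries 5 to 8, against 21.8, 20.7, 24.3 and 27.8 CPM in control stromal libraries 1 to 4. In the immune fraction it had 37.9, 50.9, 39.0 and 41.4 CPM in stretched libraries 1, 2, 7 and 8, against 27.3, 27.2, 47.7 and 37.9 CPM in control libraries 3 to 6. The groups overlapped in both fractions. The log2 fold changes of 0.11 ± 0.25 (immune) and 0.20 ± 0.18 (stromal) did not pass (edgeR adjusted p = 0.841 and 0.518). In the separate fit of all 16 libraries the immune minus stromal differences in effect were 0.11 ± 0.39 for *Stim1* and 0.08 ± 0.31 for *Stim2* (log2). That fit has its own scale factors, so these values differ from the differences of the fold changes above, also in sign. With RLE scale factors they were -0.09 and -0.13. With length and GC offsets the stretch fold changes were 0.14 (immune) and 0.02 (stromal) for *Stim1*, and 0.24 and -0.06 for *Stim2*.

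Immune and stromal cells were compared within each treatment, to ask how the sorted fractions differ in these genes. In unstretched skin *Orai2* was higher in immune than in stromal cells, at 16.8 ± 9.69 against 2.68 ± 0.595 CPM (SD, n = 4 each), a log2 fold change of 2.75 ± 0.44 (edgeR adjusted p = 0.000448). *Orai3* was lower in immune cells, at 13.7 ± 4.43 against 38.7 ± 11 CPM, a log2 fold change of -1.39 ± 0.30 (edgeR adjusted p = 0.00301). Neither gene's groups overlapped. *Orai1* (0.78 ± 0.26, edgeR adjusted p = 0.0269) and *Stim2* (0.67 ± 0.25, edgeR adjusted p = 0.0437) were higher in immune cells with overlapping groups, and *Stim1* had -0.21 ± 0.32 (adjusted p = 0.599). So 3 of the 5 members were called higher and 1 lower, beside 26.6% higher and 22.8% lower, 49.4% in all, of the 15142 genes tested. The groups of 2 of the 5 members did not overlap, against 48.0% of all genes.

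The *Orai1* call in unstretched skin ended without control stromal library 1, 2 or 4 or immune control 3, 5 or 6 (edgeR adjusted p 0.0510 to 0.111), and with no low-count filter (0.58, adjusted p = 0.138). The *Stim2* call ended without control stromal library 1, 2, 3 or 4 or immune control 5 or 6 (edgeR adjusted p 0.0506 to 0.178, with a log2 fold change of 0.44 without immune control 5), with length and GC offsets (0.36, adjusted p = 0.319) and with no low-count filter (0.46, adjusted p = 0.208).

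In stretched skin *Orai1* was 101 ± 19.3 CPM in immune and 16.9 ± 3.22 CPM in stromal cells (SD, n = 4 each), a log2 fold change of 2.45 ± 0.22 (edgeR adjusted p = 2.28e-05). *Orai2* was 19.9 ± 15.4 CPM in immune and 4.07 ± 1.5 CPM in stromal cells, with a log2 fold change of 2.13 ± 0.49 (edgeR adjusted p = 0.00572), or 1.49 without stretched immune library 2. *Orai3* was 25.4 ± 1.06 CPM in immune and 19.6 ± 2.42 CPM in stromal cells, and its log2 fold change of 0.24 ± 0.18 did not pass (adjusted p = 0.27). *Stim2* had 0.51 ± 0.21 (adjusted p = 0.0643) and *Stim1* -0.33 ± 0.22 (adjusted p = 0.236). Here 2 of the 5 members were called, both higher, beside 49.0% of the 17116 genes tested (23.9% higher). All immune values of *Orai1*, *Orai2*, *Orai3* and *Stim2* lay above all stromal values, so 4 of the 5 members were higher without overlap, against 26.6% of all genes. These comparisons share libraries with the stretch comparisons and are not independent of them.

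Levels were then compared between genes per kilobase of annotated exon. In stretched stromal cells the order of mean CPM per kb was *Orai3* (9.17 ± 1.13), *Orai1* (7.37 ± 1.40), *Stim2* (5.25 ± 0.897), *Stim1* (3.23 ± 0.590) and *Orai2* (0.670 ± 0.247), and the ranges of *Orai3* and *Orai1* and of *Orai1* and *Stim2* overlapped. In control stromal cells the order was the same, with *Orai3* at 18.1 ± 5.13, *Orai1* at 11.8 ± 0.686, *Stim2* at 4.61 ± 0.619, *Stim1* at 2.64 ± 0.371 and *Orai2* at 0.441 ± 0.0979 CPM per kb, and no neighbours overlapped. In stretched immune cells *Orai1* led with 44.0 ± 8.41 CPM per kb, followed by *Orai3* (11.9 ± 0.494) and *Stim2* (8.24 ± 1.16), and then by *Orai2* (3.27 ± 2.54) and *Stim1* (2.82 ± 0.515), whose ranges overlapped. In control immune cells *Orai1* led with 19.1 ± 6.26 CPM per kb, followed by *Stim2* (6.83 ± 1.91), *Orai3* (6.40 ± 2.07), *Orai2* (2.77 ± 1.59) and *Stim1* (2.12 ± 1), each of which overlapped with its neighbours among these 4.

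These orders depend on the length used, above all for *Stim1*, since its exons cover 10371 bases and its longest transcript 4362. Per kb of the longest transcript *Stim1* was above *Stim2* in stretched stromal (7.67 against 5.46) and control stromal cells (6.27 against 4.79), and below it in stretched immune (6.71 against 8.58) and control immune cells (5.05 against 7.10). *Stim1* was then also above *Orai2* in stretched immune (6.71 against 4.98) and control immune cells (5.05 against 4.22). In control stromal cells the ranges of *Orai3* (12.7 to 24.8) and *Orai1* (13.6 to 15.3) overlapped with that length. In stretched stromal cells the means of *Orai3* and *Orai1* were then 9.17 and 9.02.

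The makeup of the pore genes separated the fractions, with no overlap in the shares of *Orai1* and *Orai3*. *Orai3* made up 15.8 to 23.4% of *Orai* CPM per kb in stretched immune and 17.9 to 28.1% in control immune libraries, against 49.4 to 55.8% in stretched stromal and 52.1 to 66.0% in control stromal libraries. *Orai1* made up 72.7 to 75.7% in stretched immune and 62.2 to 73.5% in control immune libraries, and 40 to 48.4% in stretched stromal and 32.8 to 45.9% in control stromal libraries. *Orai2* stayed at 6.11% or less in every stromal library and reached 15.1% in immune control 5. These shares compare genes within a library and do not depend on scaling between libraries.

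Within the sensors, *Stim2* made up 69.9 to 81.3% of *Stim* CPM per kb in stretched immune and 68.1 to 81.0% in control immune libraries. It made up 55.3 to 65.5% in stretched stromal and 57.9 to 69.9% in control stromal libraries. The stretched and control ranges overlapped in each fraction. Per kb of the longest transcript the *Stim2* shares were lower in both fractions, at 50.4 to 65.5% in stretched immune and 48.2 to 65.1% in control immune libraries, and at 35.1 to 45.4% in stretched stromal and 37.6 to 50.4% in control stromal libraries.

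**Figure D4:**
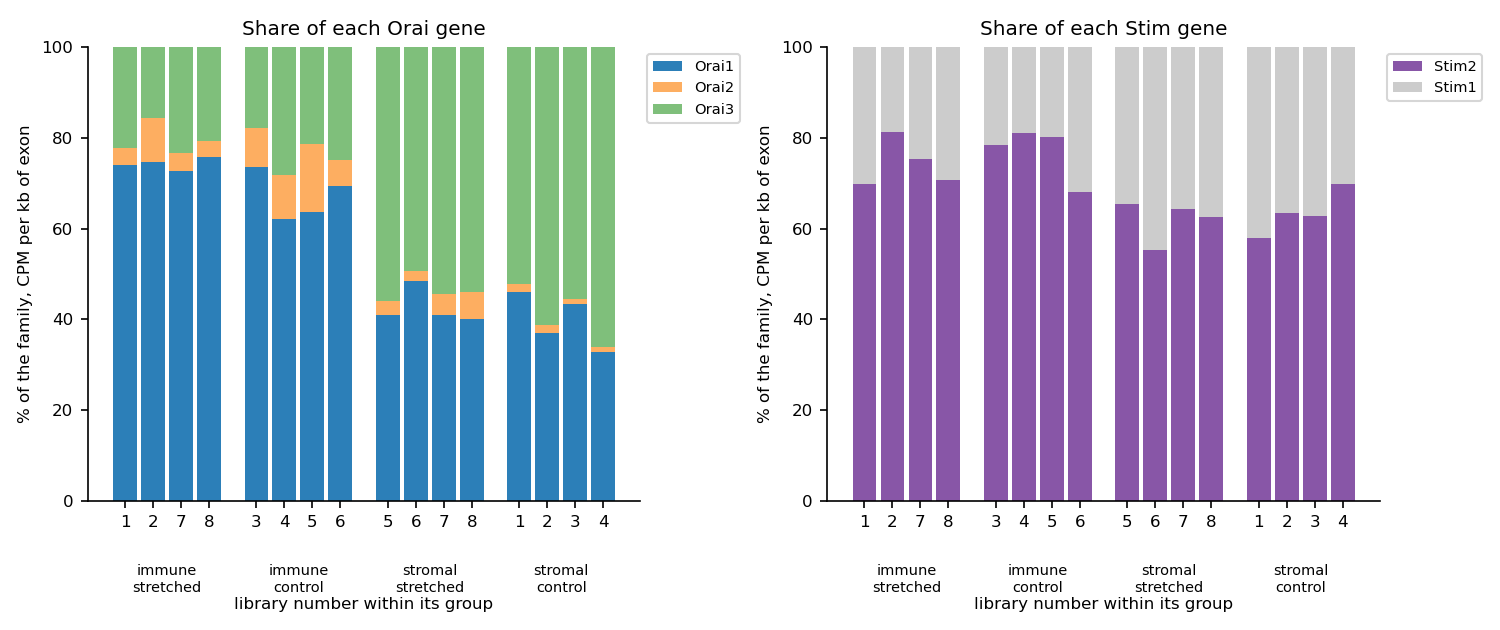
Share of each *Orai* gene (left) and each *Stim* gene (right) in the summed CPM per kb of exon of its family, 1 bar per library. *Orai3* takes 15.8 to 28.1% of the *Orai* bar in the immune libraries and 49.4 to 66.0% in the stromal libraries.

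The summed *Orai* level over the summed *Stim* level, in CPM per kb, moved with stretch in opposite directions. It was 1.43 to 2.67 in stretched stromal libraries (mean 2.09 ± 0.517) and 3.31 to 4.84 in control stromal libraries (4.2 ± 0.754; SD, n = 4 each). In immune libraries it was 4.85 to 6.05 after stretch (mean 5.31 ± 0.525) and 2.52 to 3.91 in controls (3.17 ± 0.592). The stretched and control ranges did not overlap in either fraction, also per kb of the longest transcript (1.05 to 1.97 against 2.30 to 3.62 in stromal and 3.99 to 5.71 against 2.31 to 3.56 in immune libraries). This ratio is given without a test, since the genes were chosen with results known. Its direction in each fraction is also that of the trend on transcript length across genes (Spearman rho -0.20 in immune and 0.42 in stromal cells), and the *Stim* transcripts are longer than those of *Orai1* and *Orai3*. The part of the length trend in the ratio was not tested.

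The profiles of the members over the 16 libraries were set beside those of 8923 named genes with a mean of at least 10 CPM, by the root mean square difference of log2 CPM after each gene was centred on its own mean. *Orai1* was closest to *Med11* (0.32), *Ptpn1* (0.32) and *Mif4gd* (0.34), beside a spread of its own of 1.02 (SD, log2). *Orai2* was closest to *Cdk17* (0.36), *Cyth1* (0.39) and *Cers6* (0.39), *Orai3* to *Tsta3* (0.24), *Rfxap* (0.25) and *Dxo* (0.25). *Stim1* was closest to *Odf2* (0.22), *Snrk* (0.22) and *Zfc3h1* (0.24), and *Stim2* to *Abi1* (0.16), *Washc4* (0.18) and *Rlim* (0.19). Among the members themselves the smallest difference was that of *Stim1* and *Stim2* (0.56) and the largest that of *Orai2* and *Orai3* (1.65).

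The wider pathway was described with 62 genes in 6 lists, which were chosen with earlier results of these data known. In the stretched stromal fraction 3 of the 52 tested were called higher and 1 lower, with a median log2 fold change of 0.09. Over all genes tested 2.05% were called higher and 2.93% lower, with a median of 0.01. *Nfatc1*, a calcineurin-activated transcription factor, rose to 173 ± 17.9 CPM in stretched stroma, against 82.3 ± 28.2 CPM in control stroma (log2 fold change 1.08 ± 0.27, edgeR adjusted p = 0.0483). *Smdt1*, an essential small subunit of the mitochondrial calcium uniporter, fell to 91.2 ± 27.7 CPM in stretched stroma, against 200 ± 31.3 CPM in control stroma (-1.13 ± 0.24, edgeR adjusted p = 0.0429). *Atp2a1*, the calcium pump of fast skeletal muscle, averaged 133 ± 65.1 CPM in stretched stroma, against 33.2 ± 16.6 CPM in control stroma (2.01 ± 0.48, edgeR adjusted p = 0.0466). *Ryr1*, the calcium release channel of skeletal muscle, averaged 2.18 ± 1.23 CPM in stretched stroma, against 0.555 ± 0.172 CPM in control stroma (1.97 ± 0.50, edgeR adjusted p = 0.0485).

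The 9 skeletal muscle markers, all detected, summed to 877 to 2000 CPM in stretched and 487 to 1190 CPM in control stromal libraries, and *Atp2a1* is itself in that list. Their part in the *Atp2a1* and *Ryr1* values was not tested. *Ryr1* was also read outside the stroma. In immune cells it averaged 20.9 ± 4.82 CPM after stretch and 17.7 ± 9.25 CPM in unstretched skin. It was above its stromal level by 3.1 ± 0.43 and 5.08 ± 0.56 (log2, edgeR adjusted p = 0.000396 and 4.04e-05). The muscle markers summed to less in immune libraries, at 104 to 522 CPM with stretch and 47.6 to 299 CPM without. The cell source of the *Ryr1* reads was not tested. Each of the 4 stretch calls in stroma ended without stretched stromal library 6, 7 or 8 or control stromal library 1, 2 or 3. They also ended with length and GC offsets. Under these offsets *Nfatc1* had 0.83 (edgeR adjusted p = 0.0836) and *Smdt1* -0.68 (edgeR adjusted p = 0.0848). The calls of *Atp2a1* and *Ryr1* also ended without control stromal library 4, and *Ryr1* had 1.16 without stretched stromal libraries 7 and 8 (edgeR adjusted p = 0.377). None of the 14 tested regulators of store-operated entry, such as *Saraf*, which closes the channel again, was called, and the smallest adjusted p among them was that of *Cracr2a* (1.20 ± 0.35, edgeR adjusted p = 0.0631).

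In the stretched immune fraction 0 of 50 tested pathway genes were called, as for all genes. The values with the smallest p in that comparison were those of the calcineurin subunit genes *Ppp3ca* (-0.87 ± 0.26, edgeR adjusted p = 0.185) and *Ppp3cb* (-0.75 ± 0.27, edgeR adjusted p = 0.219) and of *Esyt1*, which tethers the endoplasmic reticulum to the plasma membrane (0.72 ± 0.23, edgeR adjusted p = 0.195). The difference of stretch effects called 0 of 57 tested pathway genes.

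Between the fractions the counts of pathway genes called were near the background of all genes and are no result about the pathway. In stretched skin 15 of 55 tested pathway genes were higher and 17 lower in immune than in stromal cells, beside 23.9% and 25.1% of all genes. In unstretched skin 17 of 51 were higher and 11 lower, beside 26.6% and 22.8% of all genes. *Cracr2a*, a calcium-binding regulator that joins ORAI1 and STIM1 in T cells, was higher in immune cells (1.22 ± 0.40 in stretched and 2.25 ± 0.52 in control skin on the log2 scale). *Tmem110* (-1.22 ± 0.22 and -1.26 ± 0.27), whose protein promotes the junctions where STIM1 meets ORAI1, was lower in immune cells, as was *Ahcyl1* (-1.84 ± 0.30 and -2.03 ± 0.30), which encodes a protein that binds the inositol trisphosphate receptor. The edgeR adjusted p of these 6 values ranged from 0.000293 to 0.0287. The *Cracr2a* call in stretched skin held under 10 of 18 alternatives, where its adjusted p reached 0.138.

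Upstream of the sensors, *Plcg2*, the phospholipase C of B cells and myeloid cells, was 52.6 ± 7.26 CPM in immune and 2.80 ± 0.678 CPM in stromal cells of stretched skin (log2 fold change 4.09 ± 0.26), and 53.3 ± 26.2 against 2.34 ± 1.60 CPM in control skin (4.62 ± 0.67; SD, n = 4 each). *Itpr1*, a release channel for stored calcium, was higher in immune cells by 2.21 ± 0.28 in stretched and 3.24 ± 0.42 in control skin. *Atp2a3*, the store pump of blood cells, was 29.7 ± 4.87 CPM in immune and 1.26 ± 0.657 CPM in stromal cells of stretched skin (4.39 ± 0.44), and 28.4 ± 10.6 against 0.422 ± 0.178 CPM in control skin (6.14 ± 0.45). The NFAT genes did not move one way between the fractions. *Nfatc4* was lower in immune cells (-2.75 ± 0.44 in stretched and -2.47 ± 0.37 in control skin), and *Nfatc1* was lower in stretched skin (-1.38 ± 0.23) and did not pass in control skin (-0.36 ± 0.30). *Nfatc2* (1.09 ± 0.37) and *Nfatc3* (1.07 ± 0.32) were higher in immune cells of control skin and did not pass in stretched skin (0.36 ± 0.27 and 0.45 ± 0.22). *Mcu*, the pore of the mitochondrial uniporter, was lower in immune cells (-1.72 ± 0.22 and -1.70 ± 0.26) and its dominant-negative paralogue *Mcub* higher (2.91 ± 0.28 and 1.45 ± 0.38). The values in this paragraph passed the edgeR test over all genes, with adjusted p between 3.12e-06 and 0.0295, except the 3 said not to pass (adjusted p 0.111 to 0.347). The *Mcub* call in control skin held under 17 of 18 alternatives, with a lowest log2 fold change of 0.58 (adjusted p = 0.26). In control skin the *Nfatc2* call held under 11 of 18 (lowest 0.37, highest adjusted p 0.462) and the *Nfatc3* call under 14 of 18 (lowest 0.54, highest adjusted p 0.177), and the other calls of this paragraph held under all 18.

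**Figure D5:**
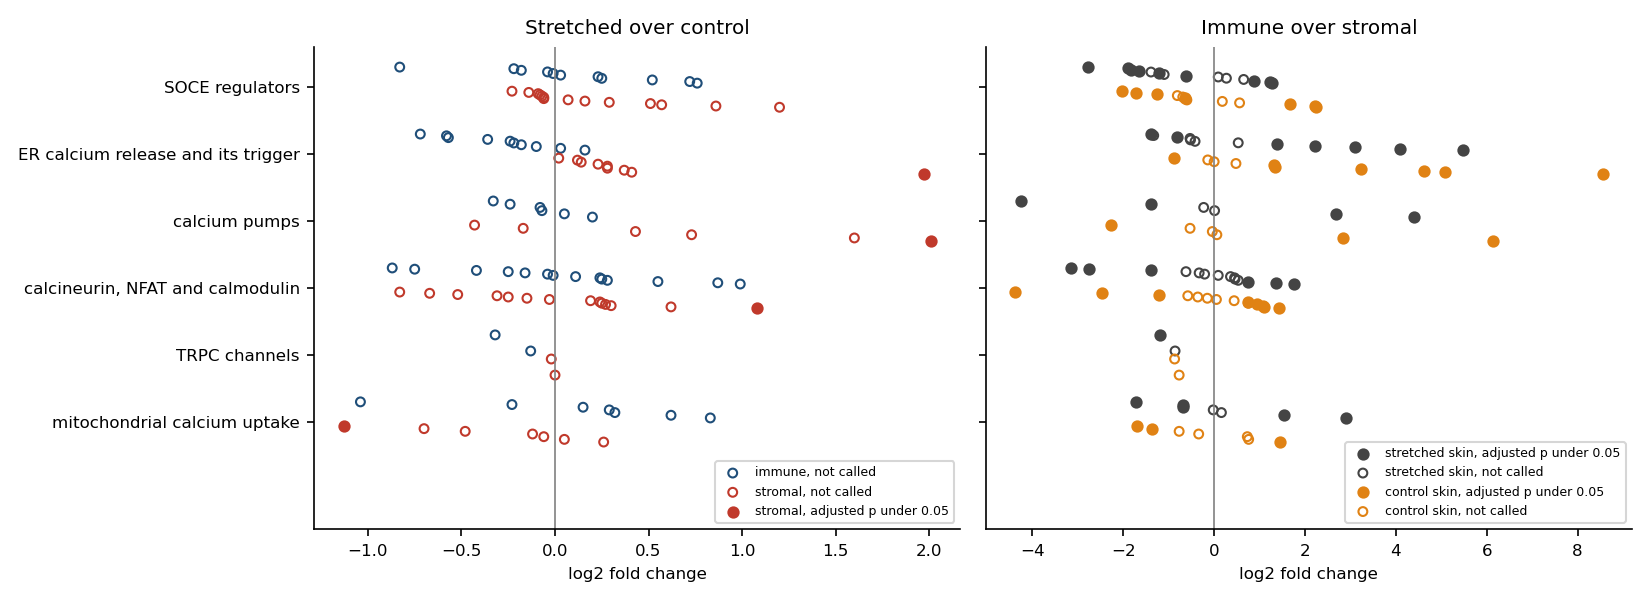
Log2 fold changes of the tested genes of 6 calcium pathway lists, for stretched over control (left) and immune over stromal (right); filled points have an edgeR adjusted p under 0.05 over all genes, open points do not. For stretched over control 4 points are filled, all in the stromal fraction, and for immune over stromal 32 are filled in stretched and 28 in control skin.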

How the data were processed

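Bulk RNA-seq of 16 libraries was analysed from the table of raw counts per Ensembl gene deposited by the authors, with no normalization. The SMART-Seq mRNA LP kit served for cDNA, and Nextera XT for the libraries, per the labels' protocols. FastQC 0.11.9, STAR (no version) and mm10 are named in the submitters' processing notes. Of the counting tool, strand setting and annotation release nothing is said in the sources used here, so reads of overlapping antisense genes cannot be told apart. Columns were matched to samples by the description label, and 0 were left out. Symbols, positions and lengths came from GENCODE M21 (55394 of 55487 IDs matched).

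Libraries were grouped by fraction (title) and treatment. Each comparison used the libraries of its own groups, and the difference of effects all 16, by the quasi-likelihood test of edgeR 4.0.16 (R 4.3.3), after filterByExpr (minimum count 10, minimum total 15), with TMM factors and Benjamini-Hochberg adjustment over all genes tested. Standard errors came from the F statistic. CPM of single genes use TMM factors over the 16 libraries, so their ratio can differ from a fold change. In the immune stretch comparison the members leaned toward higher with all 16 libraries in 1 fit. *Orai1* then had 1.20 in place of 1.06 and *Stim2* 0.27 in place of 0.11. Overlap between groups was judged on these CPM, for the members and for all genes alike. Sums over markers or receptor genes are CPM of the library total. All 5 members passed each low-count filter. The fit was run on simulated counts with a single dispersion for all genes and planted changes larger than the members' stretch effects within a fraction. That run does not measure power at effects of the members' size. Chi-square per degree of freedom between libraries of 1 group was 25.1 to 247, and no library was counted as a copy.

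The members, lists and tests were chosen with earlier results of these data known. Named were the members, called genes of each pathway list (at most 4 by p per list and comparison, of which the text uses a subset; with 0 called, up to 3 by p; a gene named in 1 comparison is given in its pair too; *Nfatc2* and *Nfatc3* were added after their values were seen), *Ptprc*, and the 3 closest profiles per member (prior count 2). Alternatives were RLE factors, DESeq2 1.42.0, no filter, a stricter filter (50 reads in 4 libraries), length and GC offsets (natural splines, 4 degrees of freedom), thinning to the shallowest library, 1 fit of all libraries, a block for the title number, omission of each library or of those with receptor reads, and, added after the data were seen, omission of immune control 4 with stretched immune library 2.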

Additional observations from a re-analysis of the deposited data

Results flagged for a closer look

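Examined were 40 groups of 4 values: the CPM of each member, the family shares and the *Orai* over *Stim* ratio. Of these, 3 held a library far from the others by Dixon's criterion, where chance flags about 1 in 20 groups. *Orai2* was 43.0 CPM in stretched immune library 2, far above the other stretched immune libraries, and its share of *Orai* CPM per kb there was 9.58%. These *Orai2* flags rest on the same reads and are not separate. *Orai1* made up 48.4% of *Orai* CPM per kb in stretched stromal library 6, above the other stretched stromal libraries.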

How the results depend on the processing

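The calls of *Orai1* and *Orai2* in stretched skin and of *Orai2* and *Orai3* in control skin, immune against stromal, held under all 18 alternatives each. In stretched against control stroma the 1 member and 800 genes called became 2 and 2274 with DESeq2, 2 and 1378 with the stricter filter, 0 and 4 with length and GC offsets, 0 and 0 without stretched libraries 7 and 8 or with all libraries in 1 fit, 2 members after thinning and 2115 genes with no filter. Single omissions gave 0 to 2 members and 0 to 1589 genes, with 0 genes without stretched library 7 or 8 or control 1, 2 or 3, and 2 genes without stretched library 6. In the immune comparison 0 and 0 became 1 member and 781 genes with DESeq2, 1 and 667 with all libraries in 1 fit and 21 genes without control 4 and stretched library 2, and omissions gave 0 members and 0 to 45 genes. In the difference of effects 0 and 0 became 2 and 1609 with DESeq2, 2 and 3924 with no filter, 2 and 120 with the stricter filter, 1 and 30 after thinning, and 2 and 698 without immune control 4 and stretched library 2. Omissions there gave 0 to 2 members and 0 to 1495 genes.

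In control skin, immune against stromal, 4 members became 2 with no filter, and 2 to 4 with omissions (6366 to 8566 genes, against 7484). In stretched skin omissions gave 2 to 3 members and 7002 to 8222 genes, and 8380 genes became 5402 without stretched stromal libraries 7 and 8. Numbers 3 and 4 occur in both control groups and 7 and 8 in both stretched groups. Same-numbered libraries had correlations of deviations of -0.09 to 0.10, and nothing in the labels ties same-numbered libraries together, so they were not treated as pairs. Whether they share an animal is not known. Numbers 1 and 2 join stretched immune with control stromal libraries, and 5 and 6 control immune with stretched stromal libraries. A block for the title number therefore holds both treatments within these numbers. A replicate block for the title number, fitted to 16 libraries, gave 2 members in control skin (*Orai1* 0.34, adjusted p = 0.402, and *Stim2* 0.42, adjusted p = 0.346, were not called), 4780 genes in stretched skin and 2 genes in the difference of effects. No number occurs in both groups of a stretch comparison, so no paired analysis was possible there because the groups share no numbers.

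Signs turned only for values that did not pass. *Stim2* had -0.06 in stroma with length and GC offsets. In the immune comparison *Orai2* had -0.08 after thinning, -0.07 without control 4, -0.81 without control 4 and stretched library 2 and -0.66 to 0.55 over single omissions, and *Stim2* -0.08 without both and -0.03 to 0.26 over omissions. In the difference of effects *Stim1* had -0.09 with RLE or DESeq2, -0.02 with the stricter filter, -0.05 without the libraries with receptor reads and -0.24 to 0.50 over omissions. *Stim2* had -0.13 with RLE or DESeq2, -0.07 with the stricter filter, -0.38 after thinning, -0.11 without immune control 4 and stretched library 2 and -0.23 to 0.25 over omissions, and *Orai2* -1.27 to 0.08 over omissions. In stretched skin *Stim1* had 0.08 with offsets and 0.04 with the block. The cause of these shifts, and of the shifts in counts, was not tested.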
